A study of Rattus norvegicus with 8 samples.

Results

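Genes of acid-base transport were read from arrays of rat semicircular canal duct (SCCD) epithelium, the lining of the canals that sense head rotation: the carbonic anhydrases Car2, Car3 and Car4, the bicarbonate transporters Slc4a2, Slc4a4 and Slc26a4, the sodium-proton exchangers Slc9a2 and Slc9a3, and the scaffold Slc9a3r1, 9 in all. Every probe set whose symbol, current name or synonym was one of these 9 genes was taken, which gave 13 of the 15866 probe sets that are not controls. Cultures were kept with 100 nM dexamethasone, a synthetic glucocorticoid (n = 4), or left untreated as control (n = 4), with 1 array per sample. The samples of both groups were primary cultures, grown on permeable supports, from canals of newborn Wistar rats. The sources do not say how long the array cultures were exposed, nor whether they are separate cultures or pairs of 1 batch, so the p-values capture only how far these samples spread, which may be technical.

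Carbonic anhydrases interconvert carbon dioxide and bicarbonate, and so feed protons and bicarbonate to the carriers in the cell membrane. SLC4 proteins and pendrin (Slc26a4) carry bicarbonate, and SLC9 proteins trade a proton for sodium, which together set the pH of the cell and of the fluid it borders. In the inner ear the pH of the endolymph matters for hearing and balance, and loss of pendrin is a known cause of inherited deafness.

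Of the 13 probe sets, 1 rose with dexamethasone and 0 fell. It was the probe set of Car3, a cytosolic carbonic anhydrase with low catalytic activity that is abundant in skeletal muscle and fat. Its signal was about 1.56 times the control signal. The call was close to the threshold and was lost when any 1 of the 8 arrays was left out. None of the transporters, exchangers or scaffolds in the set passed the test, and 8 of the 13 probe sets lay below the level of silent genes on all 8 arrays.

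Signals are in arbitrary units after each array was rescaled to a trimmed mean of 500, and a probe set was tested if its mean over the 8 arrays was at least 100. That left 10368 probe sets, of which 5 were of these genes. limma called 279 of them changed at a Benjamini-Hochberg adjusted p under 0.05, which is 2.69% of those tested. The 195 that were higher make up 1.88%. A count of 1 in 5 tested members is too small to be read against that share. The level of silent genes is the 95th percentile, on each array, of 47 probe sets of 46 genes of other tissues. It ran between 115 and 204 over the arrays and stands in for detection calls. The arrays are of bulk RNA, so fewer cells of a type and less RNA per cell cannot be told apart.

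**Figure D1:**
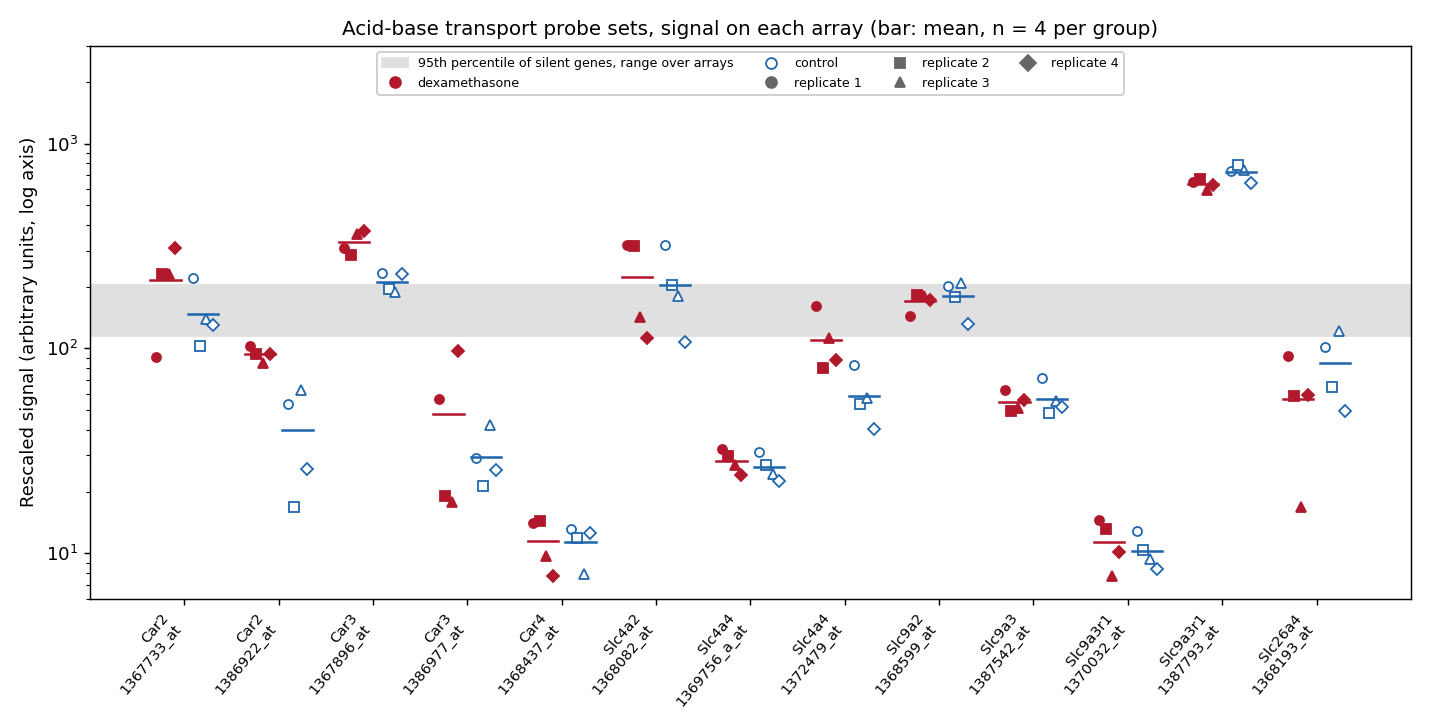
Rescaled signal (log axis) of each of the 13 probe sets on each array, dexamethasone filled and control open, one marker shape per replicate number, with the mean of each group as a bar and the range over arrays of the 95th percentile of silent genes as a grey band. Car3 1367896_at is above the band on all 4 dexamethasone arrays (285 to 374), with the 4 control arrays below them (189 to 233), while most other probe sets overlap between the groups.

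Car2 and Car3 each had a probe set in the tested range. Car3 1367896_at had signals of 309, 285, 360 and 374 on dexamethasone replicates 1 to 4, against 233, 196, 189 and 231 on control replicates 1 to 4. Each dexamethasone array lay above each control array, and each of the 8 arrays was above the level of silent genes. The means were 332 ± 41.9 with dexamethasone and 212 ± 22.9 in control (SD, n = 4 each). The log2 fold change was 0.64 ± 0.15 (SE), with a 95% interval of 0.32 to 0.97 and an adjusted p of 0.0425 in limma. The two-sided exact permutation test gave p = 0.0286, the smallest it can give with 4 against 4 arrays. By p the probe set stood at place 244 of the 279 called.

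The direction of Car3 was the same in each of the 22 alternatives computed, with log2 fold changes of 0.47 to 0.81. Most of them could not have reversed it. With each dexamethasone array above each control array, leaving out arrays or changing the filter, floor, trend or block keeps the sign. The adjusted p ran between 0.024 and 1.0 over those with a test and was under the threshold in 6. Without any one array the log2 fold change was between 0.58 and 0.71 and the adjusted p between 0.0528 and 0.125. The arrays also fall into 2 sets by the scaling of the deposited values, replicates 1 and 2 of both groups in one and replicates 3 and 4 in the other. Car3 was higher with dexamethasone by 0.47 on the log2 scale in replicates 1 and 2 (adjusted p = 0.217 in limma) and by 0.81 in replicates 3 and 4 (adjusted p = 0.241). Blocking on the array set gave an adjusted p of 0.024, in a limma fit that called 5.57% of the tested probe sets. The ratio of the 3′ to the 5′ probe sets of beta-actin, a measure of RNA quality, was 6.17 to 8.07 on the dexamethasone arrays and 8.10 to 13.7 on the control arrays, with no overlap. The gap between the groups was narrow, with 8.07 on dexamethasone replicate 3 and 8.10 on control replicate 2. The same ratio of Gapdh was 2.14 to 3.18 on the dexamethasone arrays and 2.10 to 3.79 on the control arrays, and these overlapped. Control replicate 3 had the highest value of both ratios and the lowest trimmed mean as deposited, 202. Without that array the log2 fold change of Car3 was 0.59 (adjusted p = 0.08 in limma). With the beta-actin ratio as a covariate the log2 fold change of Car3 was 0.55 and its adjusted p in limma 0.393. The part of RNA quality in the result was otherwise not tested.

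The other Car3 probe set, 1386977_at, is annotated to the same transcript record but had signals of 56.6, 19.1, 17.8 and 97.0 on the dexamethasone arrays, against 29.3, 21.2, 42.3 and 25.5 on the control arrays. It was below the level of silent genes on all 8 arrays, and the groups overlapped, so that the rise of Car3 rests on 1 of its 2 probe sets.

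Markers of skeletal muscle, where Car3 is abundant, were set beside it. Of 13 muscle genes, 10 were above the level of silent genes on no array, creatine kinase (Ckm) among them, and 1, the myosin heavy chain Myh1, was above it on all 8 arrays. The summed signal of the list was 2207 to 3732 on the dexamethasone arrays and 2308 to 3046 on the control arrays, and 0 of its 8 tested probe sets were called by limma. All 6 adipocyte markers on the array were above it on no array. Their summed signal was 187 to 321 with dexamethasone and 165 to 251 in control.

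Car2, the fast and widespread cytosolic carbonic anhydrase, was also measured by a pair of probe sets annotated to 1 transcript record. Car2 1367733_at had signals of 91.0, 232, 231 and 310 on the dexamethasone arrays, against 221, 103, 139 and 130 on the control arrays. Dexamethasone replicates 2 to 4 were above every control array, but dexamethasone replicate 1 was below all of them. The log2 fold change was 0.47 ± 0.35 (SE), with an interval of -0.30 to 1.24 and an adjusted p of 0.565 in limma. Taken alone, replicates 1 and 2 gave -0.05 and replicates 3 and 4 gave 0.99 (adjusted p = 0.975 and 0.237 in limma), and the value was 0.84 without dexamethasone replicate 1 (adjusted p = 0.155). On 5 of 8 arrays its signal exceeded the silent-gene level.

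The second Car2 probe set, 1386922_at, had signals of 103, 94.3, 84.8 and 93.5 on the dexamethasone arrays, against 53.5, 16.9, 62.9 and 25.9 on the control arrays. The groups did not overlap, but every one of these signals was below the level of silent genes on its array, and no fold change is given. A limma fit over all 15866 probe sets, which called 0.643% of them, gave it an adjusted p of 0.216. Complete separation upward was found for 662 probe sets, 4.17% of all, and for 2 of the 13 here, this one and Car3 1367896_at.

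Car4, a carbonic anhydrase anchored to the outer face of the membrane, had signals of 14.1, 14.3, 9.66 and 7.76 on the dexamethasone arrays, against 13.1, 11.9, 7.92 and 12.5 on the control arrays. All 8 signals were under the floor of 16 applied before taking log2. No level or change of Car4 could be read from this probe set.

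Among the bicarbonate carriers, none changed past the threshold. Slc4a2 (AE2), which exchanges chloride for bicarbonate and lowers the pH of the cell, had signals of 320, 317, 142 and 113 on the dexamethasone arrays, against 320, 204, 180 and 107 on the control arrays. The groups overlapped, and the arrays differed by set instead, with 204 to 320 on replicates 1 and 2 of both groups and 107 to 180 on replicates 3 and 4. On the log2 scale replicates 1 and 2 were 1.10 above replicates 3 and 4. The median of this signed difference over the tested probe sets was 0.05. Rescaling the arrays to one level keeps that median near 0, so it does not show how unusual 1.10 is. The log2 fold change with dexamethasone was 0.09 ± 0.39 (SE), interval -0.75 to 0.94, adjusted p = 0.937 in limma, and 0.849 when the array set was a block. On 6 of 8 arrays its signal exceeded the silent-gene level.

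Slc4a4 (NBCe1), which carries sodium together with bicarbonate, had both of its probe sets below the level of silent genes on all 8 arrays. Slc4a4 1372479_at had signals of 161, 79.9, 112 and 87.4 on the dexamethasone arrays, against 82.6, 53.8, 57.4 and 40.2 on the control arrays. Dexamethasone replicate 2 lay below control replicate 1, and the other 3 dexamethasone arrays were above all controls. No fold change is given, since both groups were below the level of silent genes. The adjusted p in the limma fit over all probe sets was 0.272, and the two-sided exact permutation test gave p = 0.0571. The other probe set of this gene, 1369756_a_at, had signals of 24.2 to 32.4 on the dexamethasone arrays and 22.6 to 31.3 on the control arrays, with an adjusted p of 0.816 in limma.

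Pendrin, Slc26a4, exchanges chloride for bicarbonate at the apical membrane of several inner ear cell types. Its probe set had signals of 91.6, 58.5, 16.8 and 59.3 on the dexamethasone arrays, against 102, 65.0, 121 and 49.4 on the control arrays. The groups overlapped over a wide spread, with the lowest and the highest signal both on replicate 3 (dexamethasone and control), and all 8 signals were below the level of silent genes. The adjusted p in the limma fit over all probe sets was 0.708. The SD within groups was 0.86 on the log2 scale, where the median over the tested probe sets was 0.23. Those have a mean of at least 100, which this probe set did not reach. Among the members under that minimum with any signal over the floor, the SD ran from 0.19 (Slc4a4 1369756_a_at) to 0.90 (Car3 1386977_at).

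The sodium-proton exchangers gave no difference past the threshold. Slc9a2 (NHE2), an exchanger of the apical membrane of epithelia, had signals of 144, 183, 181 and 172 on the dexamethasone arrays, against 202, 179, 209 and 131 on the control arrays. The groups overlapped, with both the lowest and the highest signal among the controls. Means were 170 ± 17.9 with dexamethasone and 180 ± 35.1 in control (SD, n = 4 each), and the log2 fold change was -0.07 ± 0.19 (SE), interval -0.48 to 0.35, adjusted p = 0.907 in limma. On 7 of 8 arrays its signal exceeded the silent-gene level.

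Slc9a3 (NHE3), the exchanger that absorbs sodium in kidney and gut and that glucocorticoids are known to raise there, had signals of 63.0, 49.3, 50.9 and 56.2 on the dexamethasone arrays, against 71.6, 48.2, 55.5 and 51.8 on the control arrays. The 2 groups covered nearly the same range, and all 8 signals were below the level of silent genes. The adjusted p in the limma fit over all probe sets was 0.984.

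Slc9a3r1, now named Nherf1, is a PDZ scaffold that ties NHE3 and other membrane proteins to ezrin and the actin skeleton. Its probe set 1387793_at had signals of 652, 673, 597 and 630 on the dexamethasone arrays, against 733, 788, 743 and 639 on the control arrays. Dexamethasone arrays were lower than 3 of the 4 controls, and control replicate 4 fell within their range. The means were 638 ± 32.4 with dexamethasone and 726 ± 62.8 in control (SD, n = 4 each). The log2 fold change was -0.18 ± 0.11 (SE), interval -0.43 to 0.06, adjusted p = 0.472 in limma. It had the sign of a decrease in all 21 alternatives and passed the threshold in 0. With an SD within groups of 0.11 on the log2 scale, this was the tightest of the 5 tested members. The other probe set, 1370032_at, had signals of 7.70 to 14.6 on the dexamethasone arrays and 8.34 to 12.8 on the control arrays, all under the floor of 16.

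The 9 genes were thus measured with unequal precision. The 95% intervals of the tested members allow a change of up to 0.43 on the log2 scale downward for Nherf1, but of -0.75 to 0.94 for Slc4a2 and -0.30 to 1.24 for Car2, so that small changes in the last 2 were not detectable with these arrays. Slc9a3r1 1387793_at and Car3 1367896_at were above the level of silent genes on all 8 arrays, 3 probe sets were above it on some (Car2 1367733_at, Slc4a2, Slc9a2), and 8 on none. With the highest signal of the silent genes as the level, Slc9a3r1 alone remained above it on all arrays. The median log2 fold change over the 13 probe sets was 0.09, beside -0.01 over all 15866, but most of the 13 values come from those 8 probe sets. Over the 5 tested members it was also 0.09, beside -0.02 over all tested probe sets, and no test was made of either median.

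Other genes of the same families and pathway were read in the same fit from lists chosen by family and role. They held 71 genes, of which 43 had a probe set and 22 of the 52 probe sets were tested. Of the 22, 2 rose and 0 fell in limma, where 1.88% of all tested probe sets were called higher, and 7 had an unadjusted p under 0.05, where 16.1% of all tested probe sets did. The 2 and 0 became 2 higher and 1 lower with the array set as block, and 1 higher and 2 lower in replicates 1 and 2 alone. The 2 that rose were of kinases. Of these, Sgk1 is a known glucocorticoid target that was also listed as a check of the labels, and it is counted in the 2 and in the 7.

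Sgk1, a kinase that glucocorticoids induce and that is known to raise the activity of NHE3 as well as of the sodium channel ENaC, had signals of 2789, 3548, 3359 and 3736 on the dexamethasone arrays, against 419, 383, 272 and 407 on the control arrays. The groups stood far apart. Its log2 fold change of 3.19 ± 0.15 (SE) had the smallest p of all tested probe sets, with an adjusted p of 1.1e-06 in limma. Oxsr1, a kinase below the WNK kinases that controls sodium-potassium-chloride cotransport, had signals of 636, 769, 752 and 625 on the dexamethasone arrays, against 499, 463, 377 and 516 on the control arrays. These did not overlap. Its log2 fold change was 0.59 ± 0.14 (SE), with an adjusted p of 0.0426 in limma, and like Car3 it lost its call in the fit over all probe sets (adjusted p = 0.100). It also lost it without any 1 of 7 arrays (adjusted p up to 0.124), control replicate 4 being the exception (0.0464), whereas Sgk1 was called without each of the 8.

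Of the other carbonic anhydrases 9 genes had a probe set, 10 of their 11 probe sets were above the level of silent genes on no array, and the 1 tested, Car7, was above it on 0 dexamethasone arrays and 1 control array (adjusted p = 0.711 in limma). The other SLC4 genes had 4 tested probe sets and 0 calls. Slc4a7 (NBCn1), a sodium-bicarbonate cotransporter, had signals of 87.2, 94.3, 233 and 186 at 1369160_a_at on the dexamethasone arrays, against 229, 291, 241 and 211 on the control arrays. The 2 low arrays were dexamethasone replicates 1 and 2. These 2 were below the level of silent genes, and the other 6 arrays were above it. In limma the difference on the log2 scale was -0.81 ± 0.30 (SE) at an adjusted p of 0.197. Its second probe set, 1379739_at, gave -0.28 (adjusted p = 0.374), and the anion exchanger Slc4a1 at 1369634_at was below the level of silent genes on all 8 arrays (adjusted p = 0.927).

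Among the other SLC9 exchangers, Slc9a8, which sits in the Golgi, had signals of 259, 279, 237 and 265 on the dexamethasone arrays, against 367, 360, 295 and 291 on the control arrays. The dexamethasone arrays were all lower, but the adjusted p in limma was 0.266 for a log2 fold change of -0.33 ± 0.14 (SE). Slc9a5 gave -0.01 (adjusted p = 0.984) and, of the SLC26 genes, Slc26a8 was below the level of silent genes on all 8 arrays (adjusted p = 0.885). The 5 proton pump genes of epithelia with a probe set were above the level of silent genes on no array, and 0 were tested.

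Lactate leaves cells together with a proton, and 4 genes of that route were tested. Slc16a3 (MCT4), a lactate exporter of glycolytic cells, had signals of 272, 204, 250 and 338 on the dexamethasone arrays, against 535, 505, 618 and 309 on the control arrays. Control replicate 4 fell inside the dexamethasone range and the other 3 controls were well above it. Its log2 fold change was -0.86 ± 0.22 (SE), with an adjusted p of 0.062 in limma. That p was 0.0477 when the array set was a block, 0.0102 without control replicate 4 and 0.00738 in replicates 1 and 2 alone. It was up to 0.162 without any other array, and 0.205 in the fit over all probe sets. With the beta-actin covariate it was 0.458, and in replicates 3 and 4 alone 0.533. Basigin (Bsg) and embigin (Emb), which bring lactate carriers to the membrane, had log2 fold changes of 0.32 and 0.25 (adjusted p = 0.292 and 0.282 in limma). Among the tested regulators that did not pass, Stk39 1387059_at, the close relative of Oxsr1, had the smallest p, with a log2 fold change of -0.22 and an adjusted p of 0.406.

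**Figure D2:**
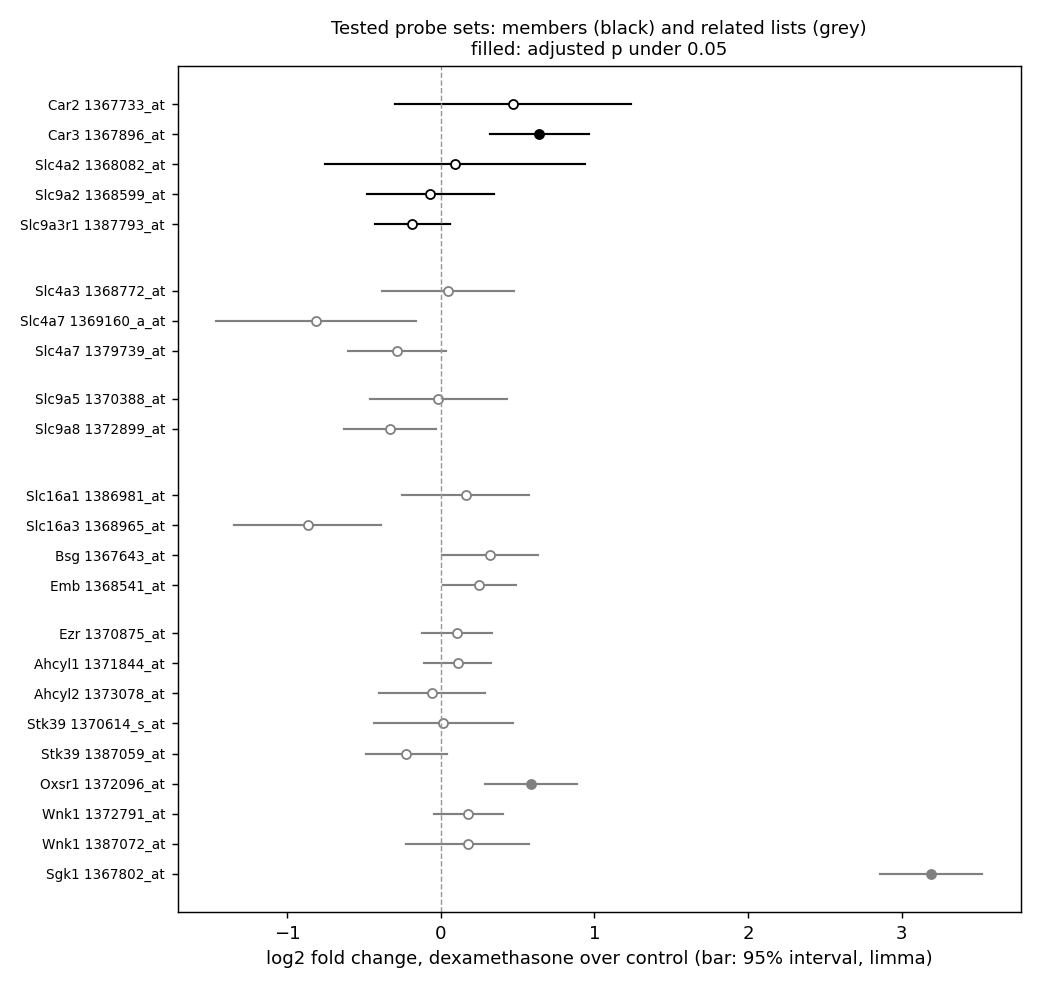
Log2 fold change, dexamethasone over control, with its 95% interval for the 5 tested probe sets of the 9 genes (black) and those 18 of the 22 tested probe sets of the related lists (grey) that were above the level of silent genes on at least 1 array of each group; filled points have an adjusted p under 0.05. Car3 at 0.64, Oxsr1 at 0.59 and Sgk1 at 3.19 are filled, and the intervals of the other 4 tested members include 0.

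Known glucocorticoid targets were read as a check of the labels. Fkbp5, a chaperone partner of the glucocorticoid receptor, was 885 to 1133 on the dexamethasone arrays and 181 to 298 on the control arrays, and Tsc22d3 was 1580 to 1993 on the dexamethasone arrays and 260 to 478 on the control arrays. Their log2 fold changes were 2.14 and 2.16 (adjusted p = 3.2e-05 and 4.1e-05 in limma). The clock gene Per1 was 193 to 267 on the dexamethasone arrays and 60.9 to 89.5 on the control arrays. All 4 control signals were below the level of silent genes, and with them raised to that level Per1 was at least 1.44-fold higher. That bound was not tested, and the adjusted p of 0.00128 is from limma on the signals before they were raised. In limma the adjusted p of Per1 was 0.0136 over all probe sets and 0.00465 in replicates 1 and 2 alone. It was 0.0536 with the beta-actin covariate and 0.199 in replicates 3 and 4 alone, where the call was lost. Scnn1a, the alpha subunit of ENaC, was 139 to 320 at 1387104_at on the dexamethasone arrays and 71.8 to 99.0 on the control arrays, again all 4 below that level. It was at least 1.38-fold higher by the same measure, which was not tested. Its adjusted p in limma, on the signals before they were raised, was 0.0338. The call was lost in the fit over all probe sets (0.15), with the beta-actin covariate (0.353) and in replicates 3 and 4 alone (0.344). It was kept with the array set as a block (0.00357) and in replicates 1 and 2 alone (0.00318). Its other probe set, 1368203_at, was under the floor on all arrays. Per1 and Scnn1a 1387104_at reached the minimum mean for testing only through their dexamethasone arrays. Their means were 224 and 228 with dexamethasone, but 72.7 and 87.1 in control, under that minimum. The fit over all probe sets does not use this minimum.

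The 5 named probe sets whose log2 signal over the 8 arrays was most like that of Car3 1367896_at were those of Tcp11l2, Max, Etfbkmt, Adgrl2 and Slc31a1, with Pearson correlations of 0.979 to 0.983. The 8 points share the 2 groups and the array sets, so the values are a description of pattern only. Of the 5, 3 were themselves called higher, Tcp11l2 by 1.01, Etfbkmt by 1.02 and Adgrl2 by 0.86 on the log2 scale (adjusted p = 0.000938, 0.0146 and 0.00515 in limma). Over all tested probe sets 1.88% were called higher. The 5 were picked for likeness to a probe set that separates the groups, so a rise follows from the choice and the 3 calls add nothing.

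**Figure D3:**
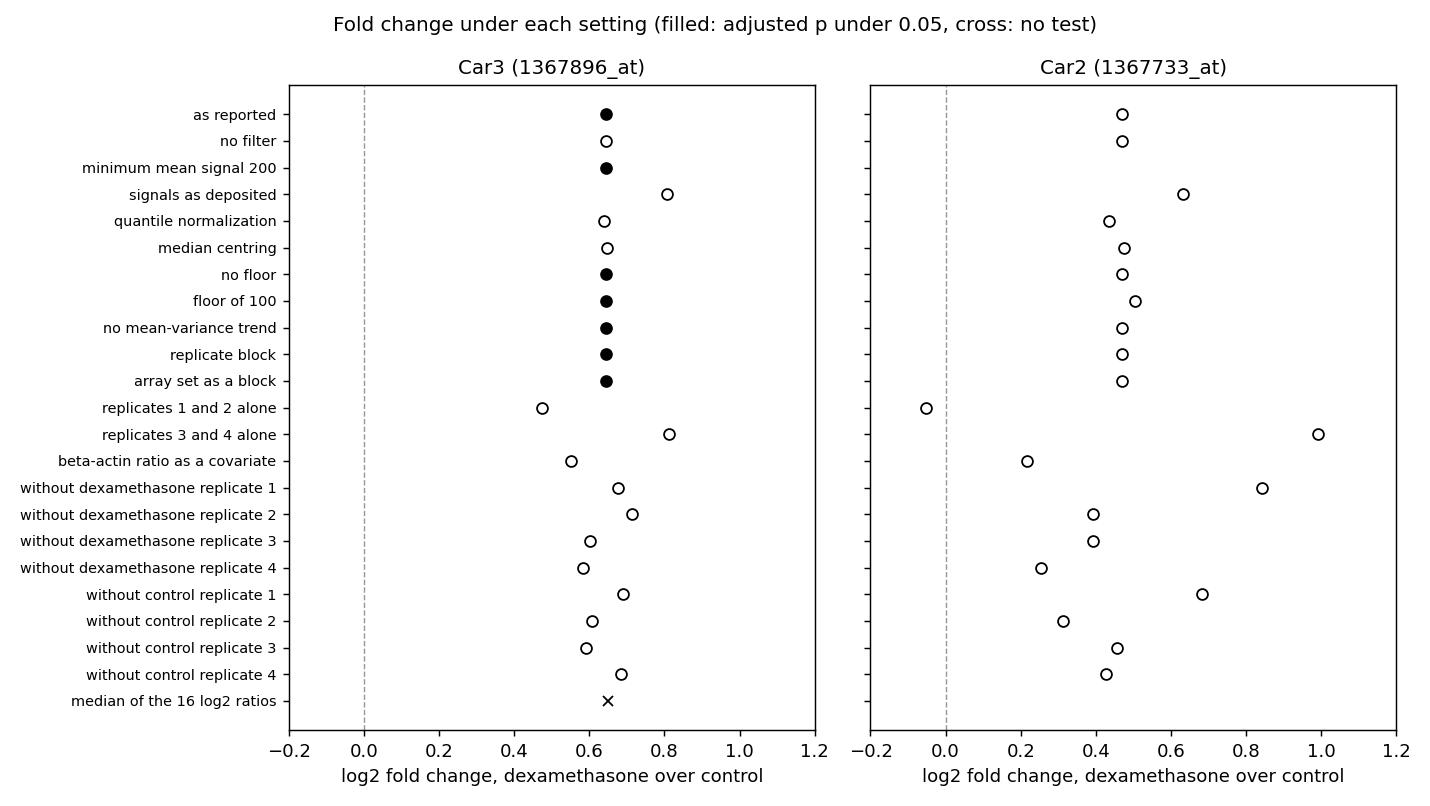
Log2 fold change, dexamethasone over control, of Car3 1367896_at (left) and Car2 1367733_at (right) as reported and under each alternative; filled points have an adjusted p under 0.05 and the cross marks an estimate with no test. Car3 stays between 0.47 and 0.81, while Car2 spreads from -0.05 to 0.99 with no filled point.

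Promoter sequences from 250 bases before to 50 bases after the start were at hand for 7 of the 9 genes in RefSeq on build GRCr8, those of Car4, Slc4a2, Slc4a4, Slc9a2, Slc9a3, Slc9a3r1 and Slc26a4; Car2 and Car3 were not among them. They held 59.7% to 78.3% G and C and 17 to 47 CpG, where the medians over 33469 rat promoters of that length were 51.7% and 7. The half-site of the glucocorticoid response element, AGAACA or TGTTCT on the other strand, was in 0 of the 7 windows and in 20.68% of all promoters. The windows of Sgk1, Fkbp5, Tsc22d3, Per1 and Oxsr1, which were called higher, held 0 as well. Absence from a window of this length therefore does not set the 7 genes apart from genes that rose. The letters TATAAA were in 1 of the 7 windows, that of Car4, and in 8.8% of all promoters.

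The labelled tissue was checked against its markers. All 9 epithelial markers on the array were above the level of silent genes on all 8 arrays, with a summed signal of 48230 to 52856 on the dexamethasone arrays and 48317 to 59865 on the control arrays, and 1 of them, the keratin Krt18, was lower with dexamethasone (log2 fold change -0.47, adjusted p = 0.03 in limma). Of the 3 vestibular dark cell markers with a probe set, Slc12a2 was above it on all arrays, and Kcne1 and Kcnq1 on none. Of 9 fibroblast genes, 4 were above it on all arrays, with sums of 5394 to 9649 with dexamethasone and 7288 to 9908 in control. Of 7 endothelial genes, 1 was above it on all arrays and 4 on none. Their summed signal was 3117 to 3834 with dexamethasone and 1405 to 1747 in control. Of their 4 tested probe sets, 1 was called higher and 1 lower in limma.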

How the data were processed

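The authors extracted total RNA from SCCD primary cultures, amplified it in 2 rounds of in vitro transcription and read it on Affymetrix rat arrays, 4 per group. The deposited values are signal intensities on a linear scale, which the labels describe as scaled to a target of 500; their 2% trimmed mean reached that target for replicates 1 and 2 in either group but was 202 to 335.8 for replicates 3 and 4. One multiplier per array, up to 2.48, brought all to 500, which keeps its probe sets in proportion but raises the noise of a dim array. The table holds no detection calls, probe-level values or coordinates. The study's change calls need probe pairs, so limma 3.58.1 in R 4.3.3 (lmFit, eBayes with a mean-variance trend, two-sided) was run on log2 signals, floored at 16, of probe sets with a mean of at least 100. Those under that minimum come from a fit over all 15866. Of these, 12783 have 1 gene symbol, 312 several and 2771 none. The number of arrays limits the precision. The script was tested on simulated data.

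The genes and lists were chosen with earlier results of these data known. Named are all probe sets of the 9 genes, those called in the related lists and otherwise the 3 with the smallest p in each list, the glucocorticoid targets, and the 5 most like Car3. Alternatives covered the filter, scaling, floor, variance model, blocks, array sets, RNA quality, each array left out, and the median of 16 array ratios.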

Additional observations from a re-analysis of the deposited data

How the results depend on the processing

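The call of Car3 was the only one among the 13 probe sets and was not stable. Its log2 fold change and adjusted p in limma were 0.64 and 0.0853 with no filter, 0.81 and 1.0 with the signals as deposited, 0.64 and 0.0546 with quantile normalization, 0.65 and 0.0746 with median centring, 0.47 and 0.217 in replicates 1 and 2 alone, 0.81 and 0.241 in replicates 3 and 4 alone, and 0.55 and 0.393 with the beta-actin ratio as a covariate; the count of changed probe sets of the 9 genes was then 0 in place of 1. Without each array in turn it was 0.58 to 0.71, and the count 0 to 0. The minimum mean of 200, either floor, the fit without a trend and both blocks kept the call. Of the other 10 probe sets with any signal over the floor, 0 passed the threshold under any alternative.

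Over all tested probe sets the count of 279 became 102 with no filter, 38 with the signals as deposited, 484 with the replicate block, 578 with the array set as a block, 440 and 21 in replicates 1 and 2 and in replicates 3 and 4 alone, 65 with the beta-actin covariate, and 180 to 275 without each array in turn. As deposited, 89.5% of calls were higher, against 69.9% after rescaling, and the median log2 fold change moved by 0.16. The count of 2 in the related lists became 1 with no filter, the signals as deposited, median centring, no trend, the replicate block, replicates 3 and 4 alone and the beta-actin covariate, 3 with the array set as a block and in replicates 1 and 2 alone, and 1 to 3 without each array. The count of 2 probe sets above the level of silent genes on all arrays became 1 at their highest signal and 3 at their 90th percentile. Deviations of same-numbered arrays from their group means correlated at 0.35, 0.25, 0.03 and 0.41. The best match had the same number for replicates 1 and 4, but not for replicates 2 and 3. These deviations also hold the difference between the array sets, so they cannot settle whether the arrays are pairs. The numbers were not taken as pairs, and with the replicate block Car3 had an adjusted p of 0.0356 in limma. Signals near the level of silent genes limit 8 of the 13 probe sets.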
